A study of Mus musculus with 6 samples.

Results

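The P2 receptors sense nucleotides outside the cell, and 8 of them were examined here in tail arteries with and without Notch3. They were P2rx1, P2rx4, P2rx7, P2ry1, P2ry2, P2ry6, P2ry12 and P2ry14, and their probe sets were those whose only gene symbol in the platform annotation was one of these names. This gave 14 of the 45101 probe sets on the chip. P2X receptors are ATP-gated cation channels, and P2Y receptors are G-protein coupled receptors for ATP, ADP, UTP, UDP or UDP-glucose. In an artery, sympathetic nerves release ATP with noradrenaline, and ATP acting on P2X1 depolarises and contracts the smooth muscle. Nucleotides from endothelium, platelets and injured cells act on P2Y receptors of muscle and endothelium, while macrophages, mast cells and platelets carry P2X4, P2X7 and P2Y12.

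The groups were caudal arteries of Notch3+/+ mice and of Notch3-/- mice, which lack Notch3, a Notch receptor of arterial smooth muscle. All mice were 4 weeks old (P28). Each group held 3 pools, which the labels call biological replicates, and each pool was hybridised to 1 MOE430 2.0 Affymetrix chip. RNA was pooled from 4 mice for Notch3+/+ replicate 1, from 3 for each of its other replicates, and from 4 for every Notch3-/- pool. Neither the targeted allele, the strain nor the sex is given in the sources used here. The question here is whether the receptors' transcripts differ when Notch3 is missing.

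Values are log2 expression per probe set, and a difference is the Notch3-/- mean minus the Notch3+/+ mean. Probe sets averaging less than the 40th percentile of all means (3.83) were described without a test, and the other 27027 were tested together with limma, adjusted by the Benjamini-Hochberg method at a threshold of 0.05. Of the 14 P2 receptor probe sets, 12 from 7 genes passed this level filter. Values of different probe sets are not compared with one another, because their probes bind with different strength. Notch3 read 9.94 to 10.09 in the Notch3+/+ pools against 5.87 to 6.51 in those lacking Notch3 on its brighter probe set, so the labels match this transcript. Arrays correlated at r between 0.978 and 0.994 across the tested probe sets. Notch3-/- replicate 2 stood apart, at 39.5 on the first principal component against -17.1 to 5.9 for the other arrays, and values without it are given for the receptors whose sign or size it moved most. The smooth muscle markers Acta2 and Tagln read 12.87 or more in every pool.

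No P2 receptor passed the test: limma called 0 of the 12 probe sets, against 0.252% of all probe sets tested, and no other setting called one. An unadjusted limma p under 0.05 was found for 2 of the 12, against 11.4% of all. Pools of one genotype stood clear of the other's for 2 of the 12, against 16.2% of all: 1 was higher in Notch3-/- (8.43% of all) and 1 lower (7.75% of all). The shares of the receptors lie near those of the chip. P2ry6 had the largest difference, 0.53 higher in Notch3-/- arteries, and P2ry2 the next, 0.30 lower. For 9 of the 12 probe sets the difference was smaller than 0.15 in either direction.

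**Figure D1:**
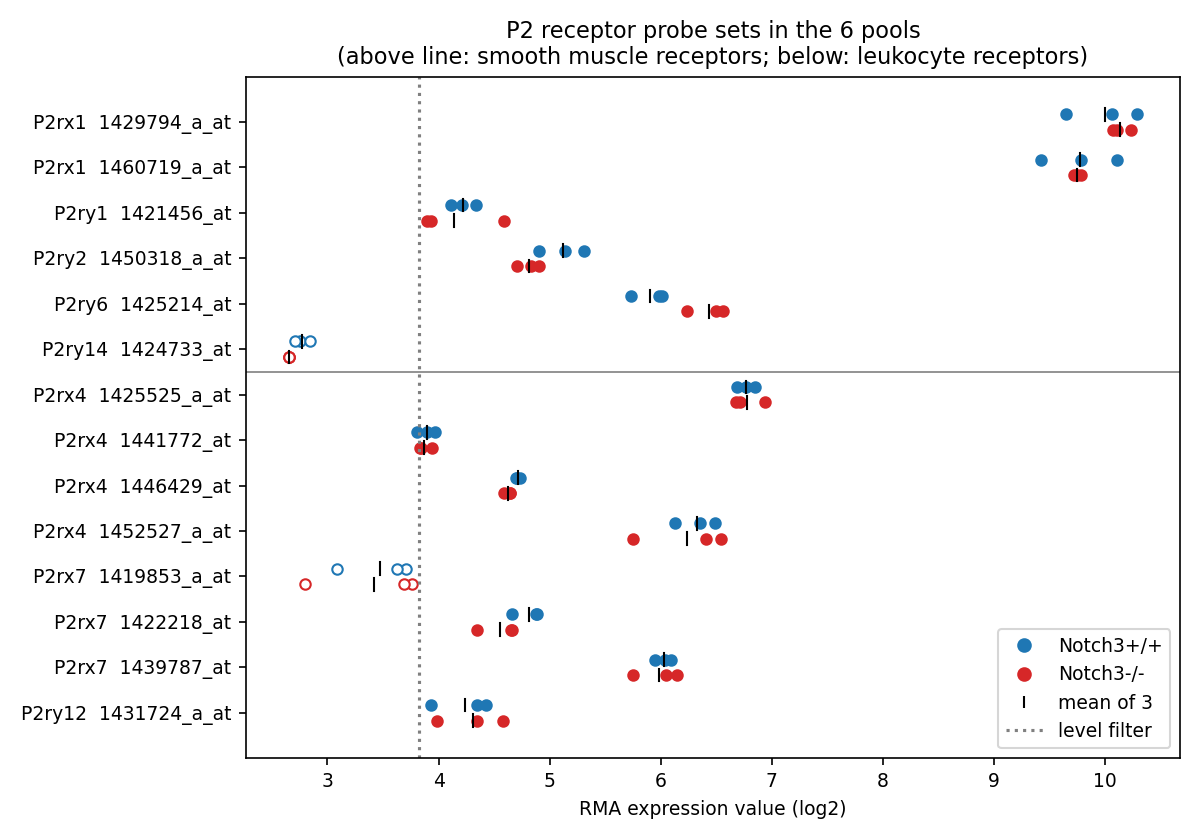
Log2 expression values of the 14 P2 receptor probe sets, with 1 point per pool (blue for Notch3+/+, red for Notch3-/-), a black tick at the mean of 3 pools, open points for the 2 probe sets below the level filter, and a dotted line at that filter. The P2ry6 points of the genotypes stand apart (5.73 to 6.01 against 6.24 to 6.56), while those of P2rx1, P2ry1 and P2ry12 overlap.

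Among the receptors of smooth muscle, P2rx1 is the channel through which nerve-released ATP excites the arterial wall. Probe set 1429794_a_at read 9.65, 10.06 and 10.29 in Notch3+/+ replicates 1 to 3 and 10.07, 10.11 and 10.23 in Notch3-/- replicates 1 to 3. All Notch3-/- pools lay inside the range of the Notch3+/+ pools, and the difference was 0.14 (SE 0.16, 95% interval -0.23 to 0.50, adjusted p = 0.755). The other P2rx1 probe set, 1460719_a_at, read 9.42, 9.78 and 10.11 in Notch3+/+ and 9.72, 9.75 and 9.78 in Notch3-/- pools. Its difference was -0.02 (SE 0.16, 95% interval -0.40 to 0.36, adjusted p = 0.971). The sign of both depended on single arrays: without Notch3+/+ replicate 1 the first read -0.04, and without Notch3+/+ replicate 3 the second read 0.15.

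What differed visibly for P2rx1 was the spread among the pools of 1 genotype. The SD was 0.324 and 0.345 in Notch3+/+ pools on the 2 probe sets, against 0.083 and 0.03 (n = 3 each) in Notch3-/- pools. Over all probe sets tested the median SD was 0.096 in Notch3+/+ and 0.131 in Notch3-/- pools, and an SD as large as those of P2rx1 in Notch3+/+ was found for 3.28% and 2.64% of them. Both probe sets, which report the same transcript, were lowest in Notch3+/+ replicate 1 and highest in Notch3+/+ replicate 3. The mean of 8 smooth muscle markers, each taken relative to its own mean over the arrays, was -0.09, 0.02 and 0.21 in those 3 pools and -0.02, -0.10 and -0.02 in Notch3-/- pools. The mean of 15 macrophage and leukocyte markers ran the other way in the Notch3+/+ pools, at 0.08, -0.14 and -0.63. Such a spread was not particular to P2rx1. Myh11, 1 of the 8 smooth muscle markers, read 11.80, 12.01 and 12.21 in Notch3+/+ replicates 1 to 3 (SD 0.205, against 0.047 in Notch3-/-). The adenylyl cyclase gene Adcy5 read 8.83, 9.29 and 9.56 there (SD 0.369 against 0.055). Among the other smooth muscle markers the Notch3+/+ SD was larger for Acta2 (0.04 against 0.0) and Tagln (0.095 against 0.045). So it was for Cnn1 (0.137 against 0.105) and Lmod1 (0.302 against 0.195). It was alike in both genotypes for Myocd (0.14 against 0.146) and Smtn (0.27 against 0.288), and smaller in Notch3+/+ for Myl9 (0.046 against 0.071). The part of cell composition in the P2rx1 spread was not tested. In such bulk samples fewer cells of a type and less RNA per cell cannot be told apart.

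RefSeq's promoter table (GRCm38.p6) held 12 windows for 7 of the 8 genes, each from 250 bases before to 50 after a start, and none for P2ry6. The P2rx1 window is shown because P2rx1 is the sympathetic ATP channel of the arterial wall, and that of P2ry2 because it had the largest difference below 0. Of the 2 starts of P2ry2 the farther upstream was taken. Only the 250 bases before the start are printed, 5′ to 3′ on the gene's strand, with matches of the GC box (GGGCGG on either strand) in capitals.
P2rx1, chr11:72998895-72999144, plus strand: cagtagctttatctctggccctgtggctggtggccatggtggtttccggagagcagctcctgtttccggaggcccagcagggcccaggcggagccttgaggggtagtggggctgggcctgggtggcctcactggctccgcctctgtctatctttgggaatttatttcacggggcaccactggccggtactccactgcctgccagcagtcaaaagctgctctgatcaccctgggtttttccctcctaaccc
P2ry2, chr7:101012054-101012303, minus strand: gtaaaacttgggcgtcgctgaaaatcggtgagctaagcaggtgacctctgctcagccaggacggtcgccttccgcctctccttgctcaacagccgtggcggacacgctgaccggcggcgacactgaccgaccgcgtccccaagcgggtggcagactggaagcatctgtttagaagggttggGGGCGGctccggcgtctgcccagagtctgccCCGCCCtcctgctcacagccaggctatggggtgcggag
The P2ry2 stretch holds 2 GC boxes and that of P2rx1 none. With the 50 bases after the start, the P2ry2 window holds 4. A GC box was found in 5 of the 12 windows, against 35.7% of 32851 windows of the same length. The 12 windows are not separate: the 2 of P2ry2 overlap and hold the same GC boxes, and P2ry14 has 4 windows. The core of the site bound by RBPJ, the DNA-binding partner of Notch receptors (GTGGGAA on either strand), was found in 0 of the 12, against 6.38% of all windows. The CArG box of serum response factor, a site common in smooth muscle genes, was also found in 0 of the 12, against 1.63% of all. The core of the site of PU.1, a factor of macrophages (GAGGAAGT on either strand), was found in 1 of the 12, from the later start of P2rx7, against 3.2% of all. These are matches of letters within short windows and do not show binding or its absence.

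P2ry6, the UDP receptor, couples to Gq and contracts arteries, and macrophages are also known to express it. It read 5.98, 6.01 and 5.73 in Notch3+/+ replicates 1 to 3 and 6.56, 6.50 and 6.24 in Notch3-/- replicates 1 to 3. Every Notch3-/- pool lay above every Notch3+/+ pool, with a gap of 0.23 between the nearest pools. The means were 5.91 ± 0.15 and 6.43 ± 0.17 (SD, n = 3), a difference of 0.53 (SE 0.12, 95% interval 0.25 to 0.80), or 1.44-fold. Its unadjusted limma p of 0.00253 ranked 353rd of the 27027 probe sets, and the adjusted p was 0.193, so it missed the threshold. A change as large in either direction was found for 2.15% of the tested probe sets. The difference was 0.49 without Notch3-/- replicate 2 and between 0.44 and 0.62 over the 6 fits that each left out 1 array (adjusted p 0.242 to 0.558).

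P2ry2, the receptor for ATP and UTP on endothelium and smooth muscle, read lower on mean. Its values were 5.31, 4.90 and 5.14 in Notch3+/+ replicates 1 to 3 and 4.83, 4.90 and 4.71 in Notch3-/- replicates 1 to 3. The groups met at 4.90 and did not otherwise overlap. The difference was -0.30 (SE 0.12, 95% interval -0.58 to -0.03), with an unadjusted limma p of 0.0348 and an adjusted p of 0.404. Without Notch3+/+ replicate 1, its highest pool, the difference was -0.21. P2ry2 and P2ry6 lie next to each other on chromosome 7 with 0 protein-coding genes between them in the RefSeq table, and their differences had opposite signs. The 8 endothelial markers had pool means of 0.06 to 0.20 for the Notch3+/+ pools against -0.24 to -0.01 for the Notch3-/- pools. Of these 8, 7 had a negative difference, as had 6424 of the 12732 genes tested. In limma 0 passed (smallest adjusted p = 0.240), with 3 at an unadjusted p under 0.05, against 11.9% of all genes tested. Nos3, which encodes endothelial nitric oxide synthase, had a difference of -0.47 and Egfl7 of -0.27. The brightest markers, Vwf and Pecam1, read -0.05 and -0.47, and Tek read 0.09. The pools of 3 of the 8 lay wholly lower in Notch3-/-, against 1003 of the 12732 genes tested. Those of 1 lay wholly higher, against 1205 of all genes tested. The part of endothelial cells in the P2ry2 difference was not tested.

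P2ry1, an ADP receptor coupled to Gq, read 4.34, 4.21 and 4.11 in Notch3+/+ and 4.59, 3.90 and 3.93 in Notch3-/- replicates 1 to 3. Notch3-/- replicate 1 was the highest of the 6 pools and the other Notch3-/- pools were the lowest, so the groups overlapped and the difference of -0.08 (SE 0.19, adjusted p = 0.890) was smaller than the spread. Without Notch3-/- replicate 1 it read -0.30 (adjusted p = 0.294), and without Notch3-/- replicate 2 it turned to 0.04 (adjusted p = 0.963). P2ry14, a Gi-coupled receptor for UDP-glucose and UDP, lay below the level filter in all 6 pools. It read 2.75, 2.71 and 2.84 in Notch3+/+ and 2.65 in each Notch3-/- pool. A gap of 0.06 separated the groups there, which was not tested. Over the 4 smooth muscle receptor genes that passed the filter, the median difference was 0.03, against 0.00 over the 12732 genes tested. The assignment to smooth muscle or leukocytes is from general knowledge and uncertain. Both kinds of cell are known to express P2ry6, P2ry14 and P2ry12, and endothelium is known to express P2ry2 and P2rx4. The medians are therefore not readouts of 1 cell type.

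Among the receptors of leukocytes no probe set differed by more than 0.26. P2rx4 is an ATP-gated channel of macrophages, mast cells and endothelium with 4 probe sets, all of which passed the filter. The brightest, 1425525_a_at, read 6.85, 6.77 and 6.69 in Notch3+/+ and 6.94, 6.68 and 6.71 in Notch3-/- replicates 1 to 3, a difference of 0.01 (SE 0.10, 95% interval -0.22 to 0.23, adjusted p = 0.984). Probe set 1452527_a_at read 6.49, 6.35 and 6.13 against 6.54, 5.75 and 6.41. There Notch3-/- replicate 2 was the lowest pool, and the difference of -0.09 became 0.15 without it. Probe set 1446429_at separated the groups, at 4.70 to 4.73 against 4.59 to 4.64, by a gap of 0.06. Its difference of -0.09 (SE 0.07, adjusted p = 0.652) did not pass, and the SD of the pools was 0.015 and 0.029 (n = 3 each). The dimmest, 1441772_at, read 3.81 to 3.97 in the Notch3+/+ pools against 3.83 to 3.94 in those lacking Notch3. None of the 4 passed.

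P2rx7, the channel that responds to high ATP and triggers the inflammasome in macrophages, had 3 probe sets. The brightest, 1439787_at, read 6.09, 6.04 and 5.95 in Notch3+/+ and 6.15, 5.75 and 6.05 in Notch3-/- replicates 1 to 3. The groups overlapped, and the difference was -0.04 (SE 0.12, 95% interval -0.31 to 0.23, adjusted p = 0.907). It was 0.07 without Notch3-/- replicate 2, the lowest pool. Probe set 1422218_at read 4.88, 4.89 and 4.66 against 4.66, 4.35 and 4.65. The groups met at 4.66, and the difference of -0.26 (SE 0.12, 95% interval -0.53 to 0.01, adjusted p = 0.465) was -0.16 without that pool. The remaining probe set, 1419853_a_at, lay below the filter, at 3.09 to 3.71 in the Notch3+/+ pools against 2.80 to 3.76 in those lacking Notch3. P2rx4 and P2rx7 are neighbours on chromosome 5 with 0 protein-coding genes between them.

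P2ry12 is the Gi-coupled ADP receptor of platelets and microglia, and is also known in smooth muscle. It read 4.43, 4.35 and 3.93 in Notch3+/+ and 4.58, 3.99 and 4.35 in Notch3-/- replicates 1 to 3. Each group held 1 low pool, the groups overlapped, and the difference was 0.07 (SE 0.18, 95% interval -0.36 to 0.50, adjusted p = 0.905). Without Notch3-/- replicate 2 it was 0.23 (adjusted p = 0.702). Means of 4 platelet markers overlapped too (-0.12 to 0.18 against -0.14 to 0.20), with differences of 0.46 for Pf4 and -0.46 for Ppbp. Over the 3 leukocyte receptor genes the median difference was 0.01, which became -0.08 when Notch3+/+ replicate 3 was left out and 0.07 when Notch3-/- replicate 2 was. Of their 7 tested probe sets, 4 were lowest in Notch3-/- replicate 2, as were 28.3% of all probe sets tested.

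**Figure D2:**
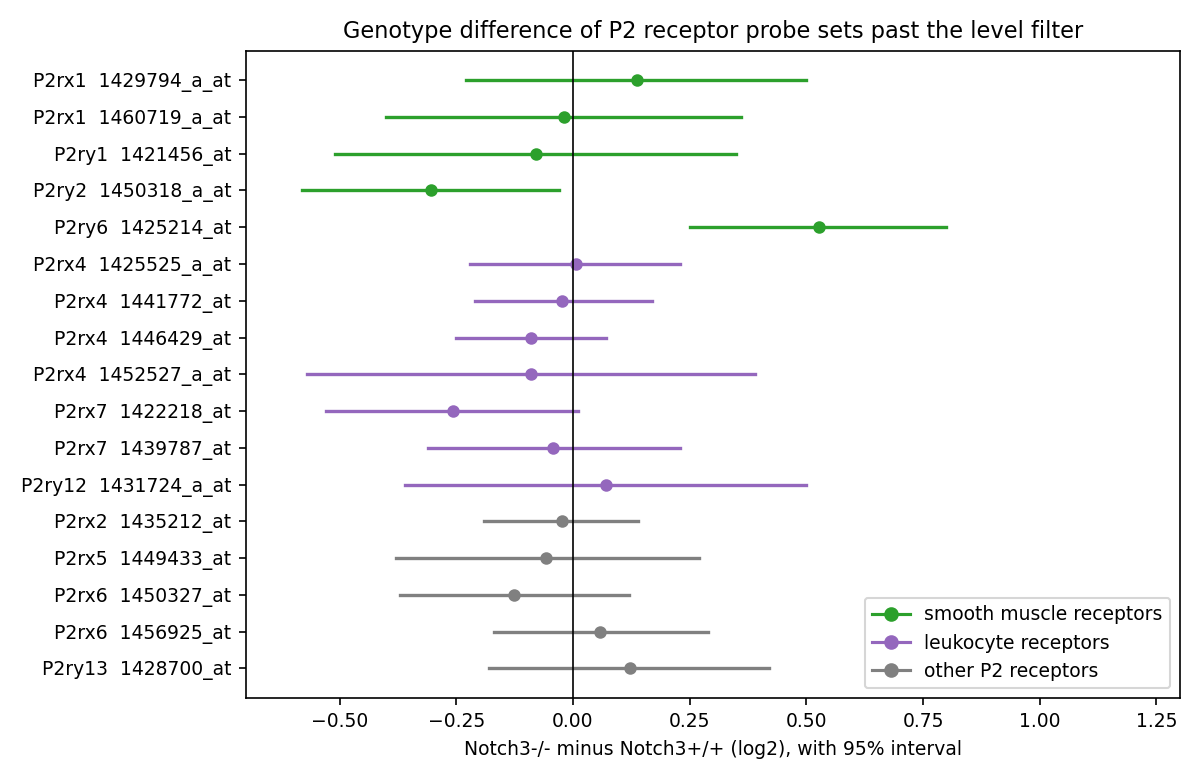
Difference between the genotypes (Notch3-/- minus Notch3+/+, log2) for each P2 receptor probe set past the level filter, with its 95% interval from limma; green marks smooth muscle receptors, purple leukocyte receptors and grey the other P2 receptors. The intervals of P2ry6 (0.25 to 0.80) and P2ry2 (-0.58 to -0.03) leave out 0, before adjustment over all probe sets, and the others include it.

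Macrophage and leukocyte markers are given here beside the receptors that macrophages carry. All 15 tested markers had a positive difference, by 0.18 to 0.66 with a median of 0.50, and the other one, Cx3cr1, lay below the filter. Of the 12732 genes tested, 6191 had a positive difference. With each marker read from its brightest probe set, limma called 0, and 8 had an unadjusted p under 0.05, against 11.9% of all genes tested. The difference was 0.66 for Laptm5, 0.58 for Cd163, 0.40 for Csf1r and 0.39 for Lyz2. C1qb passed on another probe set, 1437726_x_at, which rose by 1.07 (adjusted p = 0.0227), but the call was lost without any 1 array other than Notch3-/- replicate 1 (adjusted p 0.0678 to 0.169). The mean of the 15 markers was 0.08, -0.14 and -0.63 in Notch3+/+ and 0.45, 0.03 and 0.21 in Notch3-/- replicates 1 to 3, so Notch3+/+ replicate 1 lay above Notch3-/- replicate 2. P2ry6, taken relative to its own mean in the same way, stood at -0.19, -0.16 and -0.44 and at 0.39, 0.33 and 0.07. The receptors grouped with leukocytes, P2rx4, P2rx7 and P2ry12, had differences of 0.01, -0.04 and 0.07 on their brightest probe sets, with overlapping pools. The part of cell composition in the P2ry6 difference was not tested. All 7 mast cell markers had a positive difference as well, with a median of 0.76. Limma called 0 of them (smallest adjusted p = 0.222), with 4 at an unadjusted p under 0.05, against the same 11.9% of all genes. Among them Ms4a2 had a difference of 0.76 and Kit of 0.61, and the list's mean spanned -0.80 to 0.23 over Notch3+/+ and 0.06 to 0.66 over Notch3-/- arteries.

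**Figure D3:**
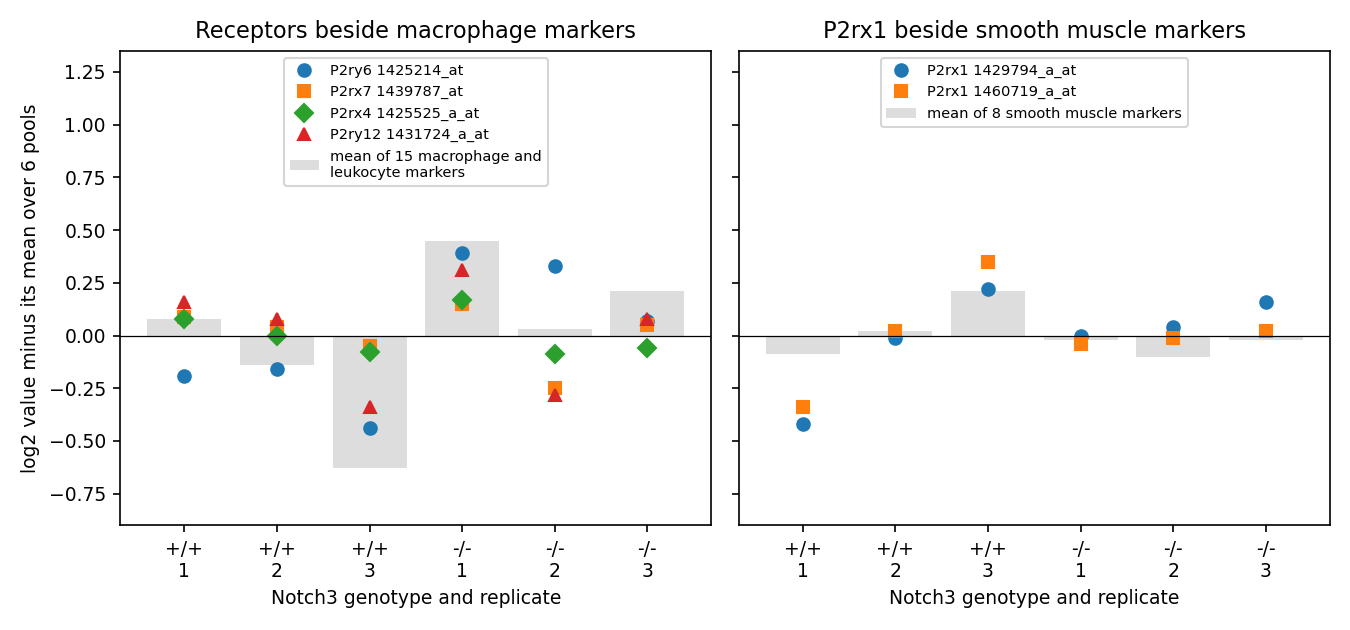
Values per pool on a log2 scale, each minus its own mean over the 6 pools. Left, P2ry6 and the brightest probe sets of P2rx4, P2rx7 and P2ry12 as points beside grey bars for the mean of 15 macrophage and leukocyte markers; right, both P2rx1 probe sets beside the mean of 8 smooth muscle markers. P2ry6 is below 0 in the 3 Notch3+/+ pools and above it in the 3 Notch3-/- pools, whereas P2rx1 spreads from -0.42 to 0.35 within the Notch3+/+ pools.

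The genes whose values ran most like those of P2ry6 over the 6 arrays were Ncoa7 (Pearson r = 0.998), Zfp760 (0.991) and Ms4a6d (0.987), the genotype difference included. For P2ry12, which had the largest difference among the leukocyte receptors read from their brightest probe sets, they were Atat1 (0.988), Svep1 (0.985) and Fam13b (0.985). An r over 0.9 was found for 216 of 12731 genes with P2ry6 and for 124 with P2ry12.

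The chip also carries other P2 receptor genes. Of 8, 4 passed the level filter and 0 passed the test in limma (0 at an unadjusted p under 0.05). P2rx6 read -0.13 on its brighter probe set and 0.06 on the other, and P2rx5 read -0.06. P2ry13, an ADP receptor of leukocytes beside P2ry12 on chromosome 3, read 0.12. Each had an adjusted p of 0.671 or more. P2rx3, the channel of sensory nerves, the UTP receptor P2ry4, P2ry10 and P2ry10b lay below the filter.

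Nucleotides reach these receptors through channels and vesicles and are removed by surface enzymes, and among the latter Nt5e rose. Nt5e, or CD73, turns AMP into adenosine. It read 6.16, 6.24 and 6.11 in Notch3+/+ and 6.87, 7.12 and 7.07 in Notch3-/- replicates 1 to 3. The groups did not overlap, and the rise was 0.85 (SE 0.09, 95% interval 0.63 to 1.07), or 1.80-fold, with an adjusted p of 0.0182. The second Nt5e probe set, 1422974_at, was 0.40 higher (adjusted p = 0.185). The Nt5e call was kept without Notch3-/- replicate 1 (adjusted p = 0.0259) and lost without any 1 of the other arrays. There the adjusted p stood between 0.0638 (Notch3-/- replicate 2 left out) and 0.139 (Notch3-/- replicate 3 left out). Nt5e is also known in fibroblasts, and 7 adventitial fibroblast markers averaged -0.26 to -0.06 in the Notch3+/+ and 0.08 to 0.20 in the Notch3-/- pools. Dpt, 1 of the 7, rose by 0.58 (adjusted p = 0.0499), and Cd34 read 0.22 higher. The Dpt call was lost under 10 of 14 other settings, each fit that left out 1 array among them (adjusted p 0.0684 to 0.261). The brightest of the 7, Dcn and Lum, read 0.01 and 0.04. All 7 had a positive difference, with a median of 0.22, as had 6191 of the 12732 genes tested. An unadjusted limma p under 0.05 was found for 4 of the 7, against 11.9% of all genes tested. The part of fibroblasts in the Nt5e rise was not tested.

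Upstream of Nt5e, Entpd1, or CD39, which strips ATP and ADP to AMP, read 8.31, 8.68 and 8.50 in Notch3+/+ and 8.16, 8.13 and 8.34 in Notch3-/- replicates 1 to 3. Its difference was -0.29 (SE 0.11, adjusted p = 0.413), its other probe sets read -0.16 and -0.21, and none passed. The alkaline phosphatase gene Alpl was 0.56 higher (SE 0.16, adjusted p = 0.260), with pools at 5.29 to 5.87 against 6.06 to 6.34, and did not pass. Of 5 genes of nucleotide breakdown tested, 1 rose and 0 fell, beside 0.322% of all genes called, and the median difference was 0.25. An unadjusted limma p under 0.05 was found for 3 of the 5, against 11.9% of all genes tested. Of 6 genes of nucleotide release, 0 passed in limma and 1 had an unadjusted p under 0.05, against the same 11.9%. Gja1, the connexin 43 hemichannel gene, read 0.33 higher (SE 0.10, adjusted p = 0.298), although its 6 tested probe sets ran from -0.02 to 0.53. The vesicular nucleotide transporter gene Slc17a9 read -0.14 and the channel gene Calhm2 0.23, and the list median was 0.07.

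**Figure D4:**
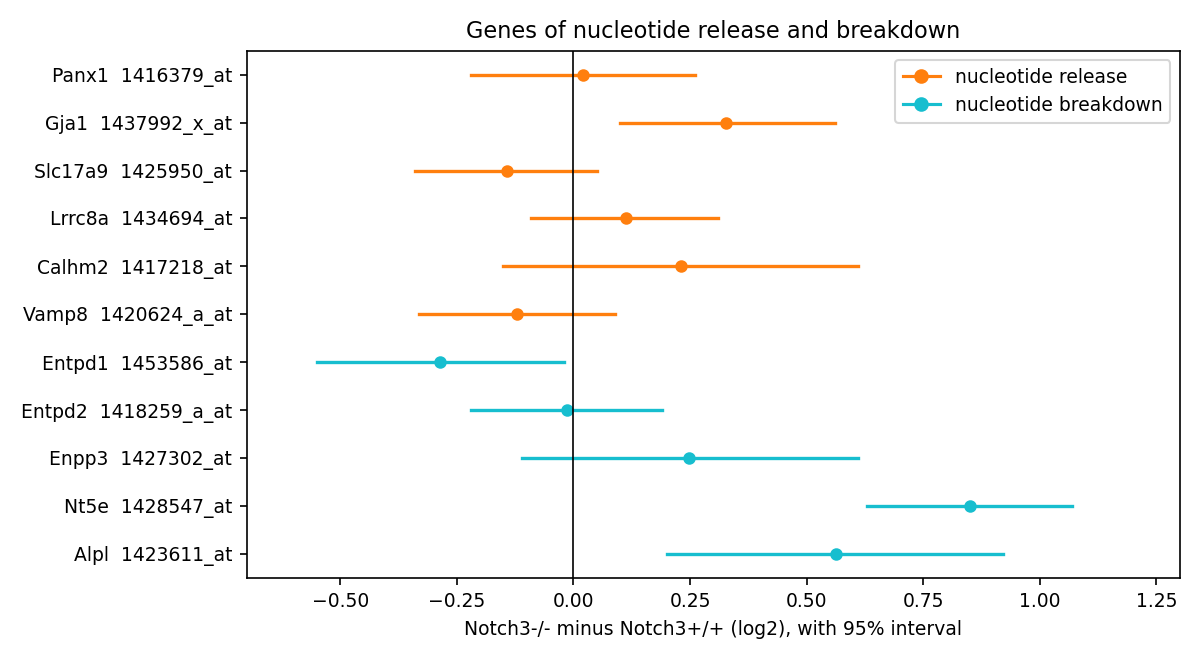
Difference between the genotypes (Notch3-/- minus Notch3+/+, log2) with its 95% interval from limma for the brightest probe set of each tested gene of nucleotide release (orange) and breakdown (turquoise). Nt5e lies farthest to the right, at 0.85, and Entpd1 farthest to the left, at -0.29.

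Behind the receptors, 0 of 22 signalling genes passed in limma, with 4 at an unadjusted p under 0.05 (11.9% of all genes) and a median of -0.01. They encode G proteins, phospholipases, cyclases, channels of calcium release and entry, kinases and arrestins. Itpr1 and Grk2, also on the list, had no probe set with that symbol alone. The phospholipase C gene Plcb4, which acts downstream of Gq, read 0.33 higher on its brightest probe set (SE 0.09, adjusted p = 0.275). The pools lay at 9.78 to 9.94 in Notch3+/+ against 10.04 to 10.27 in those lacking Notch3. On the other Plcb4 probe sets the differences were 0.29, 0.24 and -0.13, with overlapping pools. The adenylyl cyclase gene Adcy6, whose product Gi-coupled receptors inhibit, read 0.28 lower (a difference of -0.28, SE 0.10, adjusted p = 0.388). Adcy3 read -0.41 on its brightest probe set and -0.57, -0.35 and -0.18 on the other three, and in all 4 every Notch3-/- pool lay below every Notch3+/+ pool. Their adjusted p ran from 0.163 to 0.481, so none passed.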

How the data were processed

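Each of 6 RNA pools (2.5 µg of total RNA per labelling) was measured on 1 array. The authors made the deposited log2 values per probe set with RMA, per the submitters' processing notes; the sources used here name no version, chip definition or filter. Differences come out too small by RMA where a probe set is faint or near saturation. No scanner files were used, so there are no detection calls, and no batch is given in the labels. The 64 control probe sets were left out. The platform annotation gave 34945 probe sets 1 symbol, 932 several and 9160 none, and 34741 were matched by gene number to RefSeq (GRCm38.p6).

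Genotypes were compared with limma 3.58.1 in R 4.3.3 (lmFit, eBayes, genotype as the only term, two-sided), and the fit was tested on simulated data. Intervals are limma's 95% intervals and are not adjusted. The number of arrays limits the precision, and 3 pools against 3 cannot give an exact permutation p below 0.1. A gene was represented by its probe set with the highest mean. The receptors, lists and settings were chosen with earlier results of these data known. Named were all receptor probe sets, called genes of the lists, up to 3 genes per pathway list and 2 per marker list with the smallest p, up to 2 markers with the highest mean, and the 3 genes most correlated with the most different receptor of each group. Probe sets of C1qb, Nt5e, Entpd1, Gja1, Adcy3, Plcb4 and P2rx6 beside the brightest, and Cx3cr1, P2ry4, P2ry10, P2ry10b, P2rx3, Itpr1, Grk2 and Tek, complete a count. Myh11 and Adcy5 are named for their spread, and the remaining smooth muscle markers to complete the 8. Lists also held lymphocyte (1 gene tested, -0.19), Schwann cell (2 tested, median -0.02), adipocyte (2 tested, -0.06) and skeletal muscle (4 tested, -0.21) markers, with 0 called. Of 8 smooth muscle markers (median -0.05), limma called 0 by their brightest probe set. An unadjusted p under 0.05 was found for 3, against 11.9% of all genes tested: 0.51 for Cnn1, -0.39 for Myocd and -0.58 for Smtn. Pools of 2 lay wholly lower in Notch3-/- and of 1 wholly higher, against 1003 and 1205 of the 12732 genes tested. The level filter, variance model, normalization, centring, weights, replicate numbers as a block, threshold and each array were varied. Replicates with the same number deviated together at r of 0.242, 0.046 and -0.067, so the numbers were not taken as pairs.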

Additional observations from a re-analysis of the deposited data

How the results depend on the processing

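No setting called a receptor probe set, and P2ry6, P2ry2, P2rx7 on 1422218_at and P2rx4 on 1446429_at kept their sign in every setting that tested them. The largest departure for P2ry6 was 0.35 (adjusted p = 0.091) with array weights. Over all probe sets the count called was 68, between 13 and 62 with 1 array left out, 978 with array weights and 142 at an adjusted p under 0.10. With the replicate block, 57 were called over all and 0 of the receptors, and the P2ry6 adjusted p was 0.124; C1qb and Dpt lost their calls there (0.0508 and 0.121), and Nt5e kept its own (0.0459). Dpt also lost its call with no level filter (0.0565), quantile normalization (0.0501) and weights by mice (0.0552). Receptor probe sets at an unadjusted limma p under 0.05 numbered 2. There was 1 with the level filter at the 60th percentile and 1 with arrays centred on their median. There were 3 with array weights, and 1 to 3 with 1 array left out. The median of the smooth muscle receptors was 0.33 with the filter at the 60th percentile, which leaves P2rx1 and P2ry6, and -0.07 to 0.10 with 1 array left out. That of the leukocyte receptors ran from -0.08 to 0.07 with 1 array left out and was -0.05 with the mean of a gene's probe sets.

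Small differences turned sign. With array weights P2rx4 read -0.026 (1425525_a_at), 0.001 (1441772_at) and 0.048 (1452527_a_at), and P2rx7 0.011 (1439787_at). With quantile normalization P2rx4 read -0.012 (1425525_a_at) and 0.006 (1441772_at). With centring P2rx1 read 0.01 (1460719_a_at) and P2rx4 0.007 (1441772_at), and with weights by mice P2rx1 read 0.015 and P2rx4 -0.001 (1425525_a_at). With 1 array left out P2rx1 ran from -0.038 to 0.282 and from -0.195 to 0.15 on its 2 probe sets, P2ry1 from -0.305 to 0.04, P2ry12 from -0.083 to 0.228, P2rx7 from -0.127 to 0.073 on 1439787_at, and P2rx4 from -0.075 to 0.055, -0.065 to 0.015 and -0.243 to 0.152 on the 3 probe sets that turned. The cause was not tested.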
